A study of Mus musculus with 16 samples.

Results

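A set of 1720 autosomal regions carried histone H3 lysine 27 acetylation (H3K27ac) that stepped down at least 2-fold from multipotent progenitors (MPP) to common dendritic cell progenitors (CDP) and at least 2-fold again in a mature dendritic cell type. They were chosen from the 60816 regions called as differing between MPP and CDP, of which 59626 are autosomal. The rule asked for a mean MPP signal of at least 100 and a ratio of MPP to CDP means of at least 2, with 1 added to each mean. It then took, from the lists comparing CDP with classical dendritic cells (cDC) and CDP with plasmacytoid dendritic cells (pDC), the region that overlaps most with each candidate. CDP had to exceed cDC or pDC at least 2-fold there, and neither list could show a 2-fold gain over CDP. The signals in these lists therefore chose the regions, and the values below describe them without a test. With 2 libraries on each side, an exact two-sided permutation p cannot go below 0.333.

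The samples were sorted, cross-linked cells of C57BL/6 mice, with 2 H3K27ac libraries each for MPP, CDP, cDC and pDC. The labels give no treatment, genotype, sex or age, and nothing in them says that a pair of libraries stands for separate animals. The series' input and RNA samples were left out. The regions carry no gene names, and the cell types were not checked against marker genes, because no mm9 annotation was used. Read depth is unknown, since the deposited signals had been scaled.

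H3K27ac marks active promoters and enhancers, and it is removed when an element is switched off. MPP can still give rise to many blood lineages, CDP are restricted to the dendritic cell lineage, and cDC and pDC are its mature branches. cDC are known for presenting antigen to T cells and pDC for secreting type I interferon. Enhancers that serve the broad progenitor program are known to lose acetylation as cells commit, and a stepwise loss is one that spans commitment and maturation.

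Features of the lists that bear on these regions come first. In every list each region had a higher group mean of at least 253 to 303 signal units per kb, according to the list, so that places below this level in both groups are not listed. A region missing from a list is therefore not shown to be unchanged. Positions between 85 and 88 Mb were overfilled on many autosomes. The 3 bins of 1 Mb there held 1413, 3006 and 1406 regions of the MPP and CDP list over all autosomes, against at most 675 in any other bin. On 9 autosomes this window held 4.03 to 16.5 times the density of regions found elsewhere on the chromosome. On chromosomes 4 and 9 it was 2.98 and 2.91 times. It contained 258 of the 1720 regions (15%), and its part in the results was not tested beyond giving values without it. Outside the window 1462 regions remained. Within a cell type, the libraries also differed in level. The first-listed MPP library exceeded the second-listed in 1206 of the 1720 regions, and of the cDC libraries the second-listed was the higher in 1096 of the 1478 regions lost in cDC.

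From MPP to CDP, a median of 39.6% of the MPP signal was left in the 1720 regions. The median log2 ratio of MPP to CDP was 1.33, and the steepest region had a ratio of 10.7. Mean MPP signals ran from 100 to 29750 with a median of 769, while mean CDP signals ran from 24 to 11762 with a median of 272. Both MPP libraries lay above both CDP libraries in 1680 regions (97.7%). The rule used this contrast, and over all autosomal regions of the list the share was 32.4%. The authors' −log10 p was at least 10 in 1629 regions (94.7%). Of all 59626 autosomal regions of the list, 13173 (22.1%) reached this with MPP higher. That base also holds regions with CDP higher, which cannot count, and only 32366 had MPP higher. Within the 1720 regions the median SD between libraries, on the scale of log2 of signal plus 1, was 0.18 for MPP and 0.28 for CDP. Over the whole list these were 0.28 and 0.26. Summed over the regions, the MPP libraries had 4.34% and 4.86% of their autosomal signal in the list, and the CDP libraries 1.87% and 1.77%. The regions make up 5.24% of the listed autosomal length (2.55 of 48.7 Mb).

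After CDP, regions fell into 3 classes. CDP exceeded both mature types at least 2-fold in 851 regions (49.5%), cDC only in 627 (36.5%) and pDC only in 242 (14.1%). In 387 of the 627, the CDP and pDC list has no region, so their pDC signal is not known from it. Among the 1333 regions that both later lists cover, 851 were lost from both types, 240 from cDC only and 242 from pDC only. Over all autosomal regions, 22.8% of the CDP and cDC list and 22.0% of the CDP and pDC list had CDP at least 2-fold higher. Among the 7090 regions that met the conditions on MPP and CDP (11.9% of the list), 3276 were covered by the CDP and cDC list. Of these, 1576 (48.1%) had CDP at least 2-fold above cDC and 415 (12.7%) had cDC at least 2-fold above CDP. The latter share was 11.9% over all regions of that list. The CDP and pDC list covered 2854 of the 7090, with CDP at least 2-fold above pDC in 1110 (38.9%) and pDC above CDP in 882 (30.9%), against 26.6% of all its regions. The 3 lists share the CDP libraries, and these counts are those the rule itself fixes. Outside the window from 85 to 88 Mb, the classes held 748, 508 and 206 regions. With every library scaled to the same autosomal total, they held 708, 424 and 265. When 1 library was left out, the pDC only class moved by over 1.5 times in 2 cases, to 376 regions without the second-listed MPP library and 397 without the second-listed CDP library.

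**Figure D1:**
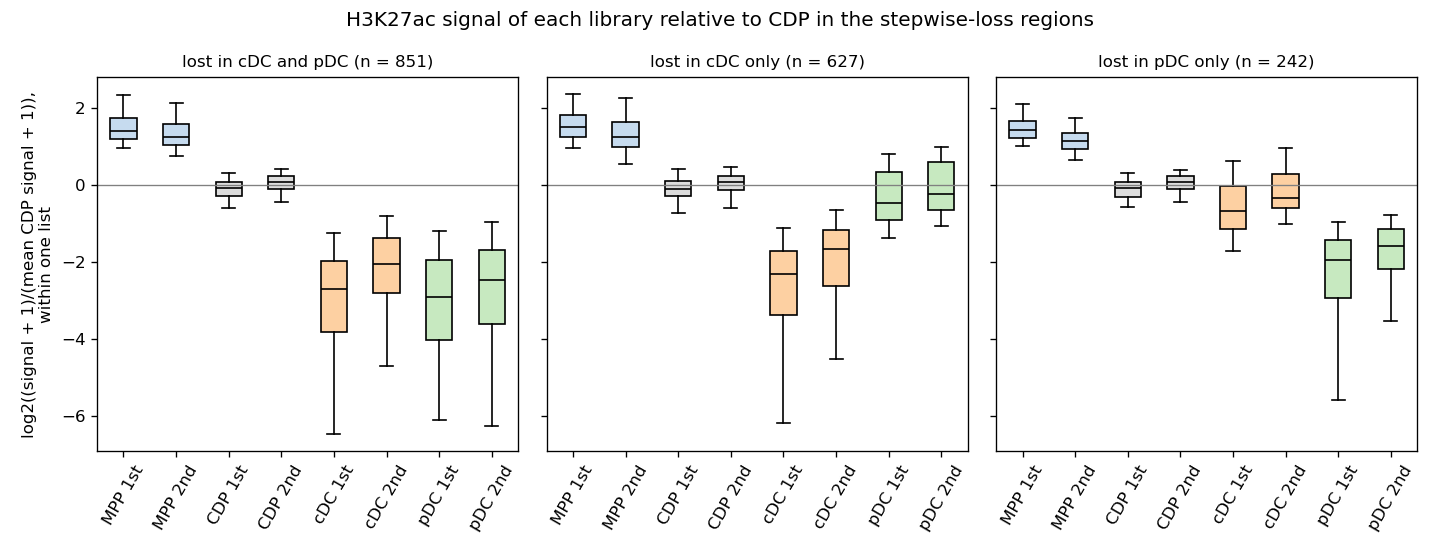
Each box gives log2 of the signal plus 1 of a library over the mean CDP signal plus 1 of the same list, for the regions lost in cDC and pDC, in cDC only and in pDC only (line, median; box, quartiles; whiskers, 5th and 95th percentile). MPP and CDP come from their common list, cDC and pDC from the lists with CDP; in the class lost in both, library medians ran from 1.26 and 1.41 in MPP to -2.05 to -2.90 in the mature types.

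In the class lost from both mature types, a median of 20.4% of the CDP signal was left in cDC and 16.3% in pDC. The first-listed and second-listed cDC libraries had median log2 values of -2.70 and -2.05 against mean CDP, and the pDC libraries -2.90 and -2.45. Every library of a mature type thus had a median more than 4-fold below CDP. The loss was larger in pDC in 511 of these 851 regions and larger in cDC in 340. In the class lost from cDC only, the cDC libraries had medians of -2.30 and -1.66, while the pDC libraries stood at -0.45 and -0.23 in the 240 regions that the CDP and pDC list covers. In 140 of these 240, CDP was still above pDC by less than 2-fold, and in 100 pDC was at or above CDP. For the 387 without a region in the CDP and pDC list, the matched regions had a median CDP level of 294 signal units per kb in the CDP and cDC list, against 399 for the 1333 regions covered in both. In the class lost from pDC only, all 242 regions were covered by the CDP and cDC list. Their pDC libraries had medians of -1.95 and -1.57, and their cDC libraries -0.66 and -0.34, with cDC at or above CDP in 69 regions.

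Libraries of CDP and of the mature type seldom overlapped. Both CDP libraries lay above both cDC libraries in 1439 of the 1478 regions lost in cDC (97.4%), and above both pDC libraries in 1079 of the 1093 lost in pDC (98.7%). The shares over all autosomal regions of those lists were 36.2% and 38.0%. The rule used these contrasts too, so nothing is read from the excess. The median SD between libraries, on the log2 scale, was 0.60 for cDC and 0.52 for pDC in these regions, larger than for MPP and CDP. The rule chose these regions for low cDC or pDC signal, and the values come from shorter matched regions. The SDs of the mature types and of MPP and CDP are therefore not a like comparison.

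The matched regions in the later lists were shorter than the regions themselves. Regions lost in cDC had a median length of 1250 bp, and their matches in the CDP and cDC list 550 bp. In 1171 of the 1478 (79.2%) the match lay wholly inside, with a median distance of 175 bp between centres. For the regions lost in pDC the medians were 1400 and 550 bp, and 930 of 1093 matches (85.1%) lay inside. The later step was thus measured mostly on a shorter part of each region. When the match had to cover at least 50% of the region, 675 regions met the rule, with 285, 303 and 87 in the 3 classes.

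**Figure D2:**
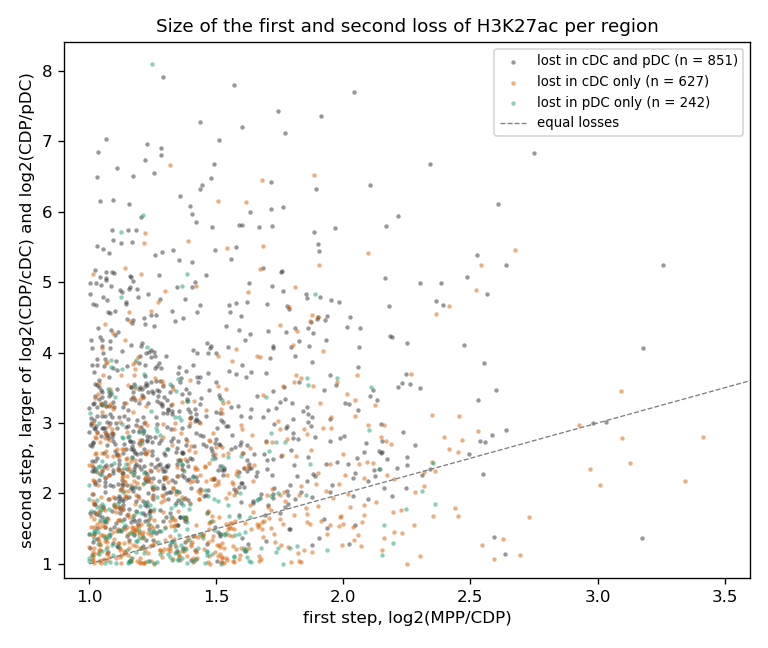
Each point is a region, with log2 MPP/CDP on the x axis and the larger of log2 CDP/cDC and log2 CDP/pDC on the y axis, coloured by the mature types in which it was lost. In 1441 of 1720 regions the later ratio, measured on a shorter matched region, lies above the dashed line of equal losses.

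The step out of CDP and the step from MPP were measured in different ways, and their sizes are set side by side only as a description. The later one is the larger of up to 2 ratios and comes from shorter matched regions, and the rule used both steps. The later log2 ratio had a median of 2.37 and exceeded the ratio of the step from MPP to CDP in 1441 regions (83.8%). It exceeded it in 814 of the 851 regions lost in both types (95.7%). It did so in 455 of 627 regions lost in cDC only (72.6%) and in 172 of 242 lost in pDC only (71.1%). Outside the 85 to 88 Mb window it was larger in 1243 of 1462 regions (85%).

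The strongest region in MPP was on chromosome 15 from 85498951 to 85503850 (mm9, 1-based), 4.9 kb long and inside the overfilled window. Its MPP libraries had 35038 and 24462 and its CDP libraries 10762 and 12761, a 2.53-fold decrease. In pDC the signals were 4707 and 6516 against 11728 and 13366 in CDP, a further 2.24-fold decrease, while cDC with 7610 and 4499 against 10142 and 12373 stayed just under the threshold at 1.86-fold. No library of a later cell type reached the libraries of the preceding one. A region on chromosome 14 from 56717951 to 56725900 had the steepest first decrease of the 8 strongest, 5.60-fold, from MPP libraries at 13995 and 11434 to CDP libraries at 2077 and 2459. Within it, 1.95 kb gave CDP signals of 1182 and 1301 and cDC signals of 54 and 103. Over 1.85 kb, CDP had 1006 and 1142 and pDC 37 and 25. Both mature types were thus more than 10-fold below CDP in this part of the region.

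Chromosome 16 held 3 of the 8 strongest regions, all lost from both mature types. From 95675301 to 95681650 the MPP libraries had 14741 and 9681 and the CDP libraries 5537 and 5300. The match in the CDP and cDC list, which is longer at 7.85 kb, had CDP at 8583 and 7828 and cDC at 447 and 1583. The match in the CDP and pDC list had 7482 and 6919 against 553 and 768 in pDC. The first decrease was 2.25-fold, and the later ones were 8.08-fold to cDC and 10.9-fold to pDC. Its neighbour from 95655451 to 95664650, the longest of all 1720 at 9.2 kb, had 10554 and 10842 in MPP and 4874 and 3857 in CDP. In the later lists the CDP libraries had 4133 and 3137 beside cDC at 162 and 540, and 3592 and 2740 against 330 and 662 in pDC. The pDC decrease of 6.37-fold was here smaller than the cDC decrease of 10.3-fold. The region from 49768601 to 49776550 had 9657 and 10707 in MPP, 3308 and 2858 in CDP, and was 11-fold lower in cDC and 10.6-fold lower in pDC than in CDP.

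The remaining 3 of the 8 strongest showed the range of outcomes after CDP. On chromosome 4 from 86334751 to 86338050, inside the overfilled window, MPP had 10049 and 10761 and CDP 3480 and 2772. Its pDC libraries differed from each other, with 170 and 720 against 3653 and 2869 in CDP, and its cDC libraries had 373 and 416 against 4139 and 3209. On chromosome 10 from 79339251 to 79348300 MPP had 11256 and 9041, CDP 2510 and 3793, and the later decreases were 4.17-fold to cDC and 5.91-fold to pDC. Chromosome 14 from 106293851 to 106298500 was the only one of the 8 lost in cDC alone. MPP had 11876 and 8141 and CDP 3733 and 4300, and cDC had 1416 and 2090 against 4309 and 4928 in CDP over 3.65 kb. In pDC the signals were 1354 and 1754 against 1081 and 1109 in CDP over 1.5 kb, so that both pDC libraries lay above both CDP libraries by less than 2-fold.

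**Figure D3:**
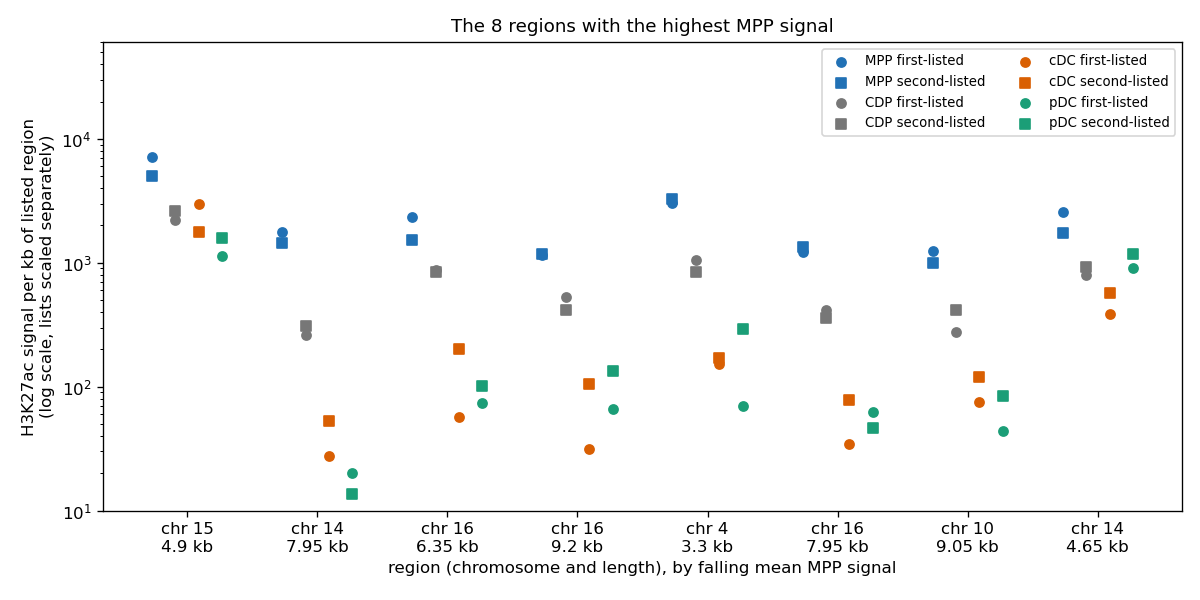
Signal of each library per kb of its listed region (log scale) for the 8 regions with the highest mean MPP signal, labelled by chromosome and length; MPP and CDP come from their common list, cDC and pDC from the lists with CDP, whose matched regions differ in length. Within the later lists CDP exceeds both mature types by 4.17-fold or more in 6 of the 8, while the 4.9 kb region on chromosome 15 and the 4.65 kb region on chromosome 14 keep signal in cDC and pDC.

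The 8 regions named for the largest loss over both steps were shorter, from 1.25 to 4.85 kb, and ended near 0 in a mature type. Only regions with separate MPP and CDP libraries and a mature mean above 0 were ranked. A region lost in pDC only, with a summed log2 loss of 9.34, is therefore not among them. The ratios of the 8 depend on the 1 added to each mean, so signals are given here. Mature signals come from shorter matched regions and are read against CDP in the same match. Chromosome 6 from 17334851 to 17336700 had 2019 and 2036 in MPP and 589 and 395 in CDP over 1.85 kb. Its pDC match of 0.95 kb had CDP at 491 and 337 and pDC at 1 and 1. Its cDC match of 1.1 kb had CDP at 610 and 414 and cDC still at 50 and 20. On chromosome 1 from 80022101 to 80023800 the libraries had 1735 and 1617 in MPP and 615 and 514 in CDP over 1.7 kb. Over 1.4 kb CDP had 690 and 608 and cDC 9 and 10. Over 0.9 kb CDP had 459 and 429 and pDC 2 and 0. On chromosome 9 from 55143451 to 55145550 the libraries had 1632 and 1474 in MPP and 564 and 260 in CDP over 2.1 kb. Over 0.65 kb CDP had 371 and 237 and cDC 0 and 7. Over 0.55 kb CDP had 296 and 192 and pDC 0 and 1. In these 3 the groups did not overlap at any step. Separate MPP and CDP libraries were a condition for naming them, and they were picked for large losses, so nothing is read from this. The order of the mature types was not fixed among the leading regions. Chromosome 3 from 115344301 to 115346550 had 3174 and 2806 in MPP and 1003 and 1443 in CDP over 2.25 kb. It kept 72 and 52 in pDC, against 961 and 1382 in CDP over 1.65 kb. In cDC it had 6 and 4, against 1210 and 1677 in CDP over 2.1 kb. The region on chromosome 16 from 33792701 to 33797550 had 6127 and 4862 in MPP and 1780 and 1499 in CDP over 4.85 kb. It kept 15 and 87 in cDC, against 678 and 412 in CDP over 1.25 kb. In pDC it had 3 and 0, against 524 and 337 in CDP over 1.05 kb. The region on chromosome 18 from 68623601 to 68627150 had the largest first decrease of the 8, 9.57-fold, from MPP libraries at 3591 and 3361 to CDP libraries at 335 and 390. Chromosome 5 from 4530351 to 4531600 and chromosome 4 from 144912451 to 144914200 complete the 8, with pDC at 0 and 1 and at 2 and 1. Over all 1720 regions, both libraries of the mature type were listed at 0 in 12 of the 1478 lost in cDC and 18 of the 1093 lost in pDC.

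Of the 5 longest regions, 4 were also among the 8 strongest. The other, on chromosome 10 from 80871651 to 80880000, was 8.35 kb long, with 7828 and 7614 in MPP and 1736 and 1975 in CDP, a 4.16-fold decrease. Over a part of 1.65 kb, CDP stood at 967 and 1021 and cDC at 310 and 495, 2.47-fold, and over 1.45 kb CDP stood at 797 and 871 and pDC at 129 and 53, 9.08-fold. In all, 19 of the 1720 regions were 5 kb or longer.

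Read directly against each other, the mature types differed as the classes had them. The cDC and pDC list covers 496 of the 1720 regions (28.8%), and the remaining places are not in that list. pDC was at least 2-fold above cDC in 202 of the 496 (40.7%) and cDC at least 2-fold above pDC in 152 (30.6%), against 28.6% and 13.6% of all autosomal regions of the list. When every library was scaled to the same autosomal total, the rule chose 1397 regions and the counts became 134 and 167, so the side with more regions depended on the scaling. It turned as well without the first-listed cDC library, with 155 higher in pDC and 169 in cDC. Outside the 85 to 88 Mb window they were 166 and 143. Among the regions lost in cDC only, 164 of 200 were at least 2-fold higher in pDC and 0 in cDC. Among those lost in pDC only, 113 of 163 were at least 2-fold higher in cDC and 0 in pDC. These directions follow from how the classes were made, from the same libraries. Of the 851 regions lost from both, only 133 (15.6%) appear in the cDC and pDC list, 38 at least 2-fold higher in pDC and 39 in cDC.

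Among regions lost in 1 mature type only, the widest splits had a branch that kept signal where the other was near 0. Regions lost from both types were not considered for naming here. On chromosome 13 from 97832751 to 97834900, MPP had 1209 and 1414 and CDP 687 and 501. Over 1.6 kb CDP had 728 and 482 and cDC 12 and 19, while over 0.3 kb pDC had 165 and 149 against 185 and 75 in CDP. Read directly, pDC had 345 and 330 against 11 and 2 in cDC. On chromosome 19 from 27291101 to 27292900, MPP had 1329 and 1236 and CDP 382 and 319 over 1.8 kb. Its match of 0.35 kb in the CDP and pDC list had CDP at 99 and 84 and pDC at 108 and 121. The direct comparison over 1 kb had pDC at 338 and 433 against 2 and 26 in cDC. On chromosome 10 from 98690451 to 98692450 both cDC libraries were listed at 0 against 56 and 46 in pDC, over only 0.15 kb, while over 0.3 kb of the CDP and cDC list cDC reached 18 and 38, beside CDP at 93 and 89. These 3 had cDC and pDC libraries that did not overlap, but they were picked for the largest ratios of these same libraries. Of the 202 regions at least 2-fold higher in pDC, 200 had separate libraries.

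In the other direction, chromosome 6 from 53657201 to 53659100 had 866 and 920 in MPP and 382 and 311 in CDP, and then 143 and 142 in cDC against 0 and 2 in pDC. On chromosome 11 from 115954851 to 115955800 the libraries had 711 and 625 in MPP and 187 and 324 in CDP over 0.95 kb. Its match of 0.5 kb in the CDP and cDC list had CDP at 150 and 315 and cDC at 148 and 242. The direct comparison over 0.6 kb had cDC at 178 and 282 against 2 and 12 in pDC. Chromosome 16 from 49986851 to 49987900 lies near the upper limit for a gain. Its cDC libraries had 339 and 382 against 164 and 203 in CDP, and its pDC libraries 8 and 0 against 56 and 78. Both cDC libraries thus lay above both CDP libraries, after a 2.19-fold decrease from 418 and 401 in MPP to 175 and 198 in CDP.

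**Figure D4:**
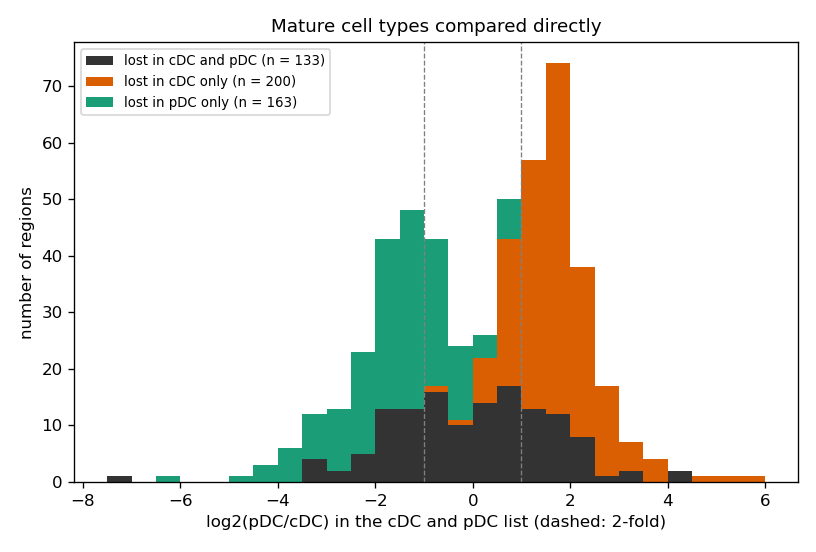
Number of regions by log2 of pDC over cDC in the cDC and pDC list, stacked by class, for the 496 regions it covers; dashed lines mark a 2-fold difference. Regions lost from cDC only (n = 200) lie mostly to the right and those lost from pDC only (n = 163) mostly to the left, as their choice fixes, while the 133 lost from both lie on either side.

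Longer regions were more often lost from both mature types. The share lost from both was 31.3% of the 571 regions under 1 kb, 54.7% of the 804 from 1 to 2 kb, 68.3% of the 300 from 2 to 4 kb and 60% of the 45 of 4 kb or more. Coverage by the CDP and pDC list moved with length too, since 40.1% of the regions under 1 kb had no match in it, against 5.33% of those from 2 to 4 kb. Among regions covered by that list, the shares lost from both were 52.3%, 66.4%, 72.2% and 61.4%. Outside the 85 to 88 Mb window the shares over all regions were 30.4%, 55.5%, 68.1% and 61.0%. The median log2 MPP/CDP ratio rose little with length, from 1.23 under 1 kb to 1.45 at 4 kb or more.

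**Figure D5:**
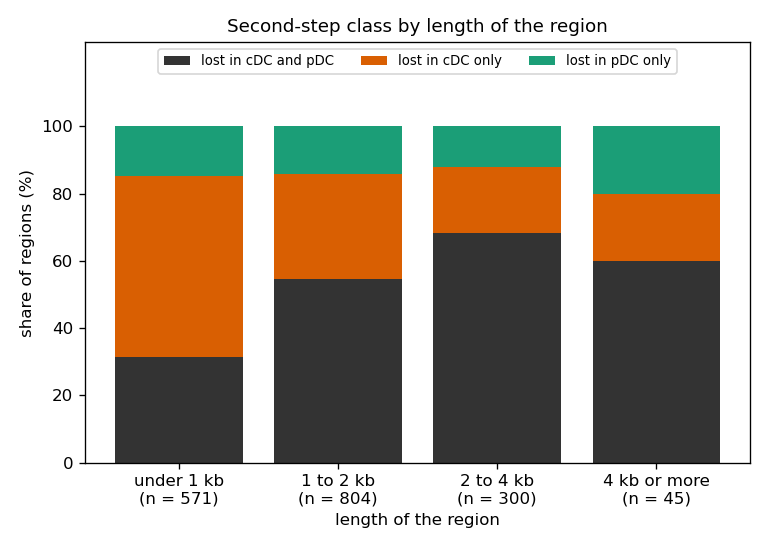
Bars give the share of regions in each class by length of the region, in percent, with the number of regions under each bar. The share lost from both mature types is 31.3% under 1 kb and 68.3% from 2 to 4 kb.

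Most of the regions had no other region of the set within 10 kb. With regions less than 10 kb apart joined, 1376 were single and 344 (20%) fell into 149 stretches of 2 to 7. Counting any region that met the conditions on MPP and CDP, 761 of the set (44.2%) had another within 10 kb. The share with a neighbour of its own kind was 28.1% for such regions in neither later list. It was 15.8% for those with a later 2-fold gain and 7.81% for those covered without a 2-fold change. These sets differ in size, and the shares were not tested. The members of a stretch often differed in class, with more than 1 class in 86 stretches, and 45 stretches held only regions lost from both types. Stretches with many members were mostly in the overfilled window, which held 8 of the 9 with 4 or more. The longest series, on chromosome 15 from 86224751 to 86262550, had 7 regions, where the MPP libraries summed to 3986 and 2870 and the CDP libraries to 1154 and 1513. On chromosome 7 from 86404251 to 86428900, 6 regions summed to 11211 and 9943 in MPP and to 3245 and 4577 in CDP, with some lost in each way. On chromosome 8 from 86093451 to 86120100, 5 regions were 2.11-fold lower in CDP. The stretch with 4 regions on chromosome 17 from 86602251 to 86618000 shows how classes mix. Summed over its regions, CDP was 2.42-fold below MPP, and 2 of the 4 were lost from both types, 1 from cDC only and 1 from pDC only. Summed over their matched regions, CDP was 1.02-fold above cDC and 3.175-fold above pDC. As a whole this stretch thus had no 2-fold decrease to cDC. The same 2 ratios were 1.93 and 1.82 for the stretch on chromosome 8. They were 4.46 and 3.61 for that on chromosome 7, and 3.24 and 1.72 for that on chromosome 15. Outside the window, 221 of 1462 regions of the set (15.1%) had another region of the set within 10 kb.

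Outside the window, the stretch with most regions was on chromosome 18 from 12798701 to 12820900. Its 4 regions, all lost from both types, had summed signals of 8557 and 6944 in MPP and 2254 and 2596 in CDP. The following stretches of 3 were singled out after their values were seen. Chromosome 16 from 95655451 to 95681650 holds the neighbours described above, with 25613 and 20825 in MPP and 10592 and 9266 in CDP, and its 3 regions were lost from both types. The stretch on chromosome 16 from 33781751 to 33797550 had 12936 and 11063 in MPP and 4264 and 4440 in CDP, with 2 regions lost from both types and 1 from cDC only. On chromosome 17, from 84376851 to 84391850, lay 3 regions lost from cDC only, with 9744 and 10486 in MPP and 3210 and 4982 in CDP. The CDP and pDC list held only 2 matched regions for these 3, with 3.35 kb in all. Summed over the 2, CDP had 1844 and 2543 and pDC 1183 and 1192, a decrease of 1.85-fold. A decrease in pDC is thus not shown for each of the 3.

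All 19 autosomes held such regions, from 48 on chromosome 18 to 145 on chromosome 11. Their share of the regions listed on a chromosome ran from 1.99% on chromosome 1 to 3.97% on chromosome 15, where 42 of the 118 lay in the overfilled window. On chromosome 16, 36 of 50 regions (72.0%) were lost from both types, and on chromosome 7 it was 30 of 82 (36.6%).

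The 7090 regions that met the conditions on MPP and CDP divided by what followed. Besides the 1720, 3471 were in neither later list, 1092 had a 2-fold gain over CDP in a mature type, and 807 were covered without a 2-fold change. The stepwise regions kept more signal in CDP than those absent from the later lists, a median of 215 against 100 signal units per kb. No region of the absent set had a CDP level above 206 per kb, while the later lists with CDP hold, in their own scaling, no higher group mean under 253 and 277 per kb. The stepwise regions were also longer, with medians of 1250 and 500 bp, and higher in MPP, with 596 and 366 per kb, while their MPP to CDP ratio was smaller, with medians of 1.33 and 1.95 on the log2 scale. Regions with a later gain lay between, with a CDP median of 151 and an MPP median of 432 per kb and a length of 700 bp. The 807 regions covered without a 2-fold change were close to the stepwise ones, with medians of 1000 bp, 545 per kb in MPP, 199.7 per kb in CDP and a log2 ratio of 1.27, so these traits are not particular to the stepwise set. The differences were not tested, and the CDP level is part of what the rule used. Of the 1720 regions, 193 (11.2%) had within 10 kb a region at least 2-fold higher in CDP with a mean CDP signal of at least 100. The share was 9.13% for the absent set, 12.4% for the regions covered without a 2-fold change and 13.3% for the regions with a later gain.

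Values next to the thresholds were close together. The regions just inside the limit for MPP over CDP had ratios of 2 and those just outside 1.9995, 1.9992 and 1.9990. For mean MPP the values were 100, 100.5 and 101 inside and 99.5 outside. For CDP over cDC they were 2, 2.005 and 2.006 inside and 1.989, 1.985 and 1.984 outside. For CDP over pDC they were 2 inside and 1.996, 1.995 and 1.989 outside. A further 115 regions with a 2-fold loss in 1 mature type were left out for a 2-fold gain in the other.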

How the data were processed

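The measurement was H3K27ac ChIP-seq (chromatin immunoprecipitation, then sequencing), each cell type having 2 libraries. Per the labels' protocols, chromatin was sheared to 200 to 400 bp. The labels name different suppliers of the antibody in different fields. Per the submitters' processing notes, reads were aligned with BWA 0.6.1 to mm9. THOR, which calls differential peaks between groups, is named in the title. For its settings, the sources used here give nothing. The authors' deposited lists give each region 4 whole-number signals, 2 per group, and the caller's p-value as −log10. The signals are scaled per library and per list, so levels were compared only within a list, and depth is unknown.

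The order of groups was taken from the list names and checked on autosomal regions with identical bounds in a pair of lists. In 10 pairs of signals, those of the same library, the log2 ratio had an SD of at most 0.080, and in the other 86 pairs of at least 0.56. Since MPP appears once, its position follows from the name and by elimination. Values carry no replicate number.

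Members were found by the rule with a pseudocount of 1 on group means. Ties in overlap took the first region listed. The selection code was run on simulated lists with a first step steeper than in most of these regions. Every simulated region had a centred match in both later lists, and libraries varied less than those of the mature types here. Its behaviour with smaller steps and off-centre or missing matches was not tested. Named regions are the 8 with the highest mean MPP signal, the 8 with the largest summed log2 loss (separate MPP and CDP libraries, mature mean above 0), the 5 longest, the 5 stretches with most members after joining at less than 10 kb, and the 3 widest cDC to pDC splits in each direction among members lost in 1 type. The members and lists were chosen with earlier results of these data known. Gene lists, motifs and sequences were not used here, since a genome and annotation of mm9 were not used. Software versions were pandas 2.3.3, numpy 2.4.6, matplotlib 3.10.9 and Python 3.11.15. Alternatives covered pseudocount, scaling, thresholds, overlap, length, the authors' p-value, separate libraries and leaving out each library. Leaving out 85 to 88 Mb was added after seeing the data.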

Additional observations from a re-analysis of the deposited data

How the results depend on the processing

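No paired analysis was possible because the values in the lists carry no replicate number. Over 19 alternative settings and 7 results, 117 of 133 values stayed within 1.5 times the reported count, or within 0.18 of the median log2 ratio, and 16 did not. A ratio of at least 3 in each step left 394 regions, with 175 lost from both types, 160 from cDC only and 59 from pDC only, a median log2 MPP/CDP of 1.88, and 34 regions 2-fold higher in pDC and 23 in cDC. Asking that the matched region cover at least 50% left 675, with 285, 303 and 87 in the classes and 66 and 46 in the direct comparison. Equal autosomal totals left 134 regions 2-fold higher in pDC than cDC, and 1311 of the 1720 regions were among the 1397 it chose. The classes then held 708 regions lost from both types, 424 from cDC only and 265 from pDC only. These counts stayed within 1.5 times, but the excess of cDC only over pDC only became smaller. Leaving out each library in turn gave 1492 to 2339 regions, 766 to 1101 lost from both, 523 to 862 from cDC only and 185 to 397 from pDC only. The median log2 MPP/CDP then ran from 1.32 to 1.36, with 155 to 291 regions higher in pDC and 120 to 219 in cDC. The side with more regions turned (155 in pDC, 169 in cDC) when the first-listed cDC library was left out. The count of regions lost from pDC only rose to 376 without the second-listed MPP library and 397 without the second-listed CDP library. The cause of these shifts was not tested. Without the second-listed CDP library, 1355 of the 1720 regions were chosen again. Depth limits could not be given, because the signals are scaled.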

Other observations

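The overfilled positions are a feature of all 4 deposited lists. Between 85 and 88 Mb lay 9.77% of the autosomal regions of the MPP and CDP list, 10.1% of the CDP and cDC list, 8.38% of the CDP and pDC list and 6.55% of the cDC and pDC list. On chromosome 12 this window held 814 regions of the MPP and CDP list, 16.5 times the density elsewhere on that chromosome, whereas on chromosomes 1, 5 and 16 the density was 0.965, 0.996 and 0.938 times that elsewhere. Regions there were short, with a median of 400 bp against 600 bp outside in the MPP and CDP list. The 258 stepwise regions in the window had a median length of 675 bp and a median MPP signal of 286, against 1350 bp and 836 for the 1462 outside. Fewer of those in the window were lost from both mature types (39.9% against 51.2%), but not at every length. The shares in and outside the window were 33.5% and 30.4% under 1 kb, 45% and 55.5% from 1 to 2 kb, and 70.8% and 68.1% from 2 to 4 kb, with 170, 60 and 24 regions in the window. Of the regions in the window, 47.7% had another within 10 kb, against 15.1% outside. These differences were not tested.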
